A study of Mus musculus with 8 samples.

Results

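Id2, Id3 and Id1 and the E protein genes Tcf3, Tcf4 and Tcf12 were taken by name from the annotation as 6 of 20807 autosomal protein-coding genes, and the contacts of the 50 kb bin holding the start of each gene (its start bin) were followed over 2 Mb on each side. E proteins are basic helix-loop-helix transcription factors that pair with each other and bind the E-box, the motif CANNTG, in the enhancers of B lineage genes. Id proteins carry the helix-loop-helix but lack the basic region, so an E protein held by an Id protein cannot bind DNA. In B cells the balance between the groups sets early lineage commitment, and later the E protein activity needed for germinal centre and antibody-secreting cells. Tcf3 encodes E2A (E12 and E47), Tcf4 encodes E2-2, which also directs plasmacytoid dendritic cells, and Tcf12 encodes HEB, best known from T cell development. Id3 is a target of antigen receptor and Egr signalling, Id2 opposes E proteins in innate lymphoid and natural killer cells, and Id1 is a classical BMP and Smad target.

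In situ HiC read pairs were counted in 8 libraries of primary mouse B cells, all exposed to 25 µg/ml lipopolysaccharide (LPS) from Salmonella typhosa after negative isolation and labelling with the division dye CTV. The 4 groups, with 2 biological replicates each, were C57BL/6 cells at 3 h, C57BL/6 cells at 10 h, C57BL/6 cells at 33 h that were about to divide (33 h imminent), and C57BL/6 FUCCI cells at 33 h before S phase (33 h pre-S). FUCCI mice carry fluorescent cell cycle reporters, and the pre-S cells were sorted in G1 by these reporters, so that strain, sort and stage cannot be told apart in any difference between the pre-S group and the others. The methods describe male mice aged 6 to 12 weeks on a C57BL/6 Pep3b background, and no unstimulated library was used here, so every comparison is between stimulated cells. How many animals gave a library is not given in the sources used here.

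The libraries held 88703088 to 218945191 read pairs. Between autosomal bins, 70.9% to 75.1% of the pairs joined bins of the same chromosome, and 47.4% of these same-chromosome pairs spanned over 1.5 Mb in both 33 h imminent libraries, against 50.7% to 53.7% in the other 6. Replicate 2 of the 33 h imminent group stood apart on the sex chromosomes: X bins took 3.74% of its pairs against 2.39% to 2.84% in the other 7 libraries, and Y bins 0.0490% against 0.0804% to 0.123%, whereas the methods describe male mice. The sums, scores, ratios and contacts named for the imminent group were therefore also fitted without this library, whereas the sums by distance class and the counts of whole windows were not. HiC reads no RNA, so the cell type could be checked only by compartment: the start bins of 7 of 7 B cell markers lay in the open A compartment in all libraries, but so did those of 4 of 4 T cell, 3 of 3 myeloid, 2 of 2 erythroid and 2 of 2 plasma cell markers, and 1 of 2 natural killer cell markers, so this check does not separate cell types.

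The 6 genes lie on 6 autosomes in unlike surroundings (GRCm38, GENCODE annotation). Id2 (ENSMUSG00000020644, chr12:25093799-25097140, minus strand) has 13 protein-coding gene starts within 2 Mb, Id3 (ENSMUSG00000007872, chr4:136143497-136145755, plus strand) has 78, and Id1 (ENSMUSG00000042745, chr2:152736251-152737410, plus strand) has 96. Tcf3 (ENSMUSG00000020167, chr10:80409514-80433647, minus strand) has 165, Tcf4 (ENSMUSG00000053477, chr18:69343356-69689079, plus strand) has 23, and Tcf12 (ENSMUSG00000032228, chr9:71842688-72111871, minus strand) has 33, whereas the median start bin has 45.

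The start bin of Tcf3 also holds the start of Uqcr11, a subunit of respiratory complex III, and is the most GC rich of the 6, at 53.7% against a median of 44.0% over 13301 start bins. Id2 starts 2.69 kb from the edge of its bin, and 14 of the 81 bins of its window were left out, all toward lower coordinates. The Id genes span 1.16 kb to 3.34 kb, whereas Tcf12 covers 269 kb and Tcf4 346 kb, so their bodies reach across several bins.

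Id2 and Tcf3 had the largest rise and the largest fall in summed contacts from 10 h to 33 h imminent (that of Id2 was not called with TMM factors or DESeq2), and the 250 bases before their RefSeq starts (GRCm38.p6) are shown with any E-box in capitals, written 5′ to 3′ on the strand of the gene. Id2 is at chr12:25096093-25096342 and Tcf3 at chr10:80433636-80433885, both on the minus strand.
Id2: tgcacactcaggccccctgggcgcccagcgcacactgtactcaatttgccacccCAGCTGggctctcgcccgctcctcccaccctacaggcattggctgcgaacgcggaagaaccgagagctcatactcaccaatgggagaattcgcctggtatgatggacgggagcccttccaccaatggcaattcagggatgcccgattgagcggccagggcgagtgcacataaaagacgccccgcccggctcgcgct
Tcf3: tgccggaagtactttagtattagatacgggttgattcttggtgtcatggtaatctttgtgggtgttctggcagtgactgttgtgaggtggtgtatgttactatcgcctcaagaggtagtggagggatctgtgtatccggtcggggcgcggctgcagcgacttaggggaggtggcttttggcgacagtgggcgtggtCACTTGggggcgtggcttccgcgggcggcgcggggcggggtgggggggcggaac
Each holds 1 CANNTG, a motif that reads the same on both strands at its fixed letters. It is CAGCTG in Id2, with its first base at -196 from the start, and CACTTG in Tcf3, with its first base at -54. The 250 bases before the RefSeq start of Id3 (chr4:136143572-136143821) hold 0. Positions are counted from the RefSeq starts. For Id2 and Id3 these 250 bases lie inside the gene spans given above, after the annotated start used for the start bin. Over 32851 promoter entries of the same length, 66.2% hold at least 1 CANNTG, 13.0% hold CAGCTG and 17.2% hold CAGGTG or its reverse complement CACCTG. Such a match describes the letters and is not a binding site, and a 50 kb bin spans far more sequence than is shown.

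Id2 contacted mainly one side of its neighbourhood, and this asymmetry held in every library. Of its read pairs within 2 Mb, 79.8% to 82.3% ran toward higher coordinates, where bins at 250 to 700 kb were contacted 3.80 to 4.58 times as often as the mean of bin pairs at the same distance on the chromosome (observed over expected) and bins at 750 to 1450 kb 6.46 to 8.60 times. Beyond 1500 kb the value dropped to between 0.579 and 1.1. Toward lower coordinates it was 0.686 to 1.13 at 250 to 700 kb and 0.0432 to 0.0956 at 750 to 1450 kb, over the 9 bins that were kept. The strongest partners of Id2 were at 1000 kb (chr12:26050586-26099903) and 1150 kb (chr12:26199959-26250065), both without a protein-coding gene, and at 1250 kb (chr12:26300265-26350089), over Rnf144a, a ubiquitin ligase gene, with mean observed over expected values of 11.4, 11.4 and 10.5. The bin at 1000 kb shared 75 and 127 read pairs with Id2 in the libraries of 3 h, 96 and 113 in those of 10 h, 95 and 145 in the imminent and 94 and 68 in the pre-S libraries.

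**Figure D1:**
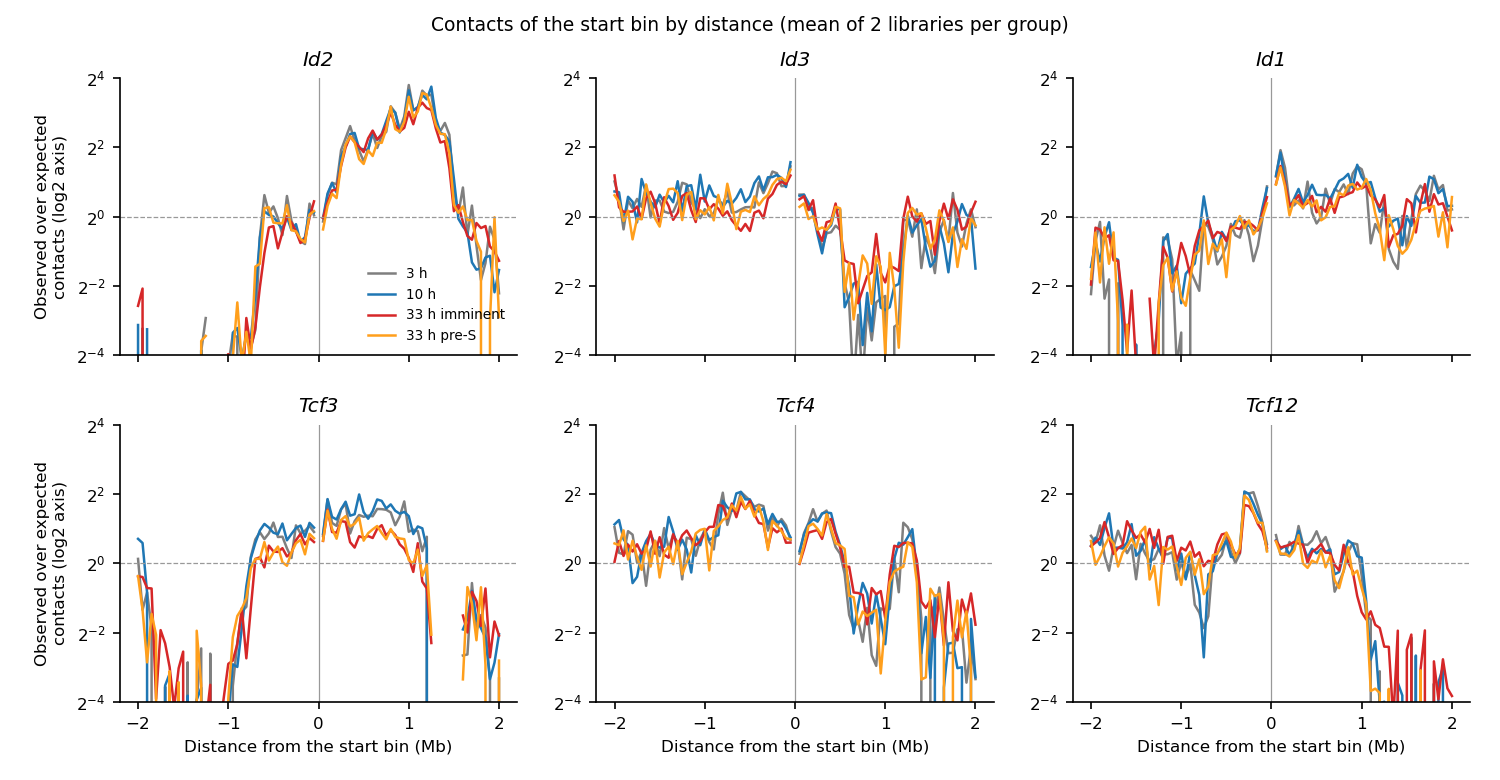
Observed over expected contacts of each start bin (log2 axis, 1 is the mean of the chromosome at that distance) against the distance of the partner bin in Mb, negative toward lower coordinates, as the mean of 2 libraries per group, with gaps at bins left out. Id2 climbs on the side of higher coordinates in all 4 groups, is highest between 1000 and 1250 kb, and falls beyond. The Tcf3 lines of both 33 h groups run mostly below those of 3 h and 10 h between 700 kb on the lower and 1200 kb on the higher side.

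Among partner bins at least 150 kb away, to which the strongest partners named here are limited, those of the other genes had lower values. For Id3 the bin 250 kb toward lower coordinates, which holds the starts of Srsf10, Pnrc2 and Cnr2, the last of these the cannabinoid receptor of B cells, was among the 3 strongest, with a mean value of 2.033. For Id1 the strongest were the bins at 950 kb, 150 kb and 1000 kb toward higher coordinates, holding the start of Dnmt3c, the body of Tpx2 and the start of Mapre1, with values of 2.31, 2.12 and 2.08. Tcf3 contacted the gene-dense bins at 300, 450 and 650 kb at 2.90, 2.70 and 2.66. Tcf4 was joined most often to gene-free bins 500 to 600 kb toward lower coordinates, upstream of the gene, at 3.34 to 3.89. Tcf12 was joined most often to 3 bins that overlap its own body, 200 to 300 kb from the start, at 3.23 to 3.85. The bin at 300 kb (chr9:71799406-71850017) holds only the 3′ end of Tcf12 and lies mostly past it.

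The sum of same-chromosome read pairs between a start bin and all partners up to 2 Mb asked whether the genes gained or lost contacts as the cells were activated. From 10 h to 33 h imminent, Id2 and Tcf12 gained, Tcf3 lost, and Id3, Id1 and Tcf4 did not pass the test (edgeR quasi-likelihood test over 13254 start bins, Benjamini-Hochberg adjusted). These 3 of 6 genes stand beside 44.2% of all start bins called in that comparison. By 33 h pre-S, Id2 had gained and Id1 and Tcf3 had lost, again 3 of 6, beside 37.3% of all start bins. Neither share is far from its background, so the count says nothing particular about these genes. The direction depended on the scaling. The offsets follow a loess curve over abundance, and with 1 TMM factor per library or with DESeq2, 3 of 6 sums were again called from 10 h to 33 h imminent, but as Id3, Id1 and Tcf3 lower and 0 higher, beside 27.1% of all start bins lower and 29.0% higher with TMM factors and 26.5% and 24.4% with DESeq2. The rises of Id2 and Tcf12 were not called under either, and the fall of Tcf3 was called under all 3.

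The summed read pairs of Id2 numbered 1833 and 3521 in the libraries of 3 h, 2580 and 3303 in those of 10 h, 4162 and 5315 in the imminent and 2367 and 2146 in the pre-S libraries. On the normalised log2 scale (log2 CPM, counts scaled to library size, after loess offsets) these were 4.34 and 4.40, 4.34 and 4.35, 4.53 and 4.55, and 4.44 and 4.50. The 4 libraries of 33 h lay above all 4 earlier ones. The change from 10 h was 0.20 ± 0.04 (SE) for the imminent group, a 1.15-fold rise with adjusted p = 0.000316 by edgeR, and 0.13 ± 0.04 for the pre-S group, with adjusted p = 0.0145. The pre-S call was lost without either 10 h library or replicate 2 of the pre-S group (adjusted p up to 0.12 by edgeR). Without replicate 2 the imminent change was 0.19 with adjusted p = 0.00160. Both changes depended on the scaling. With TMM factors the imminent change of Id2 was 0.02 (adjusted p = 0.736 by edgeR) and with DESeq2 0.01 (0.812). Before the offsets, Id2 had a CPM of 22.1 and 21.6 at 10 h and of 20.2 and 20.4 at pre-S, and with TMM factors the pre-S change was -0.02, not called.

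The sums of Id1 were 2092 and 2702 at 10 h and 1673 and 1543 at 33 h pre-S, or 4.08 and 4.10 against 3.90 and 3.99 on the normalised scale. Its pre-S values were the lowest of its 8 libraries, and the change of -0.15 ± 0.04 had adjusted p = 0.0133 by edgeR. Leaving out either 10 h library or replicate 1 of the pre-S group took this call away, with adjusted p up to 0.232. For Id3 the normalised values ran from 3.94 to 4.08 over all 8 libraries. Its change to 33 h imminent was -0.10 ± 0.04, with adjusted p = 0.0649, and -0.06 without replicate 2. With TMM factors the imminent changes of Id3 and Id1 were -0.17 and -0.14, with adjusted p = 0.00546 and 0.0281 by edgeR.

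Among the E proteins, Tcf3 fell the most. Its sums were 1894 and 3300 in the libraries of 3 h, 2816 and 3466 in those of 10 h, 3334 and 4383 in the imminent and 2032 and 1880 in the pre-S libraries, and the normalised log2 values were 4.40 and 4.32, 4.47 and 4.43, 4.20 and 4.26, and 4.22 and 4.30. All 4 libraries of 33 h lay below all 4 earlier ones. The change from 10 h was -0.22 ± 0.04 for the imminent group, with adjusted p = 0.000342 by edgeR, and -0.24 with adjusted p = 0.000311 without replicate 2. For the pre-S group it was -0.19 ± 0.04, with adjusted p = 0.00256, and 0.0991 without replicate 1 of that group. The size of the Tcf3 fall depended on the scaling: for the imminent and pre-S groups it was -0.38 and -0.33 with TMM factors and -0.38 and -0.33 with DESeq2. Tcf12 went from 4.16 and 4.14 at 10 h to 4.28 and 4.31 at 33 h imminent, a change of 0.15 ± 0.04 with adjusted p = 0.00833 by edgeR, but its 3 h values of 4.18 and 4.32 overlapped those of the imminent group. Without replicate 2 of the imminent group it was 0.13 (adjusted p = 0.0349 by edgeR). Leaving out either 10 h library took the Tcf12 call away, as did TMM factors and DESeq2 (0.01 under each). Tcf4 ran from 4.22 to 4.35 over all libraries and changed by 0.07 ± 0.04 and 0.06 ± 0.04 from 10 h, with adjusted p = 0.124 and 0.290, and by -0.08 and -0.08 with TMM factors (0.0818 and 0.130 by edgeR).

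**Figure D2:**
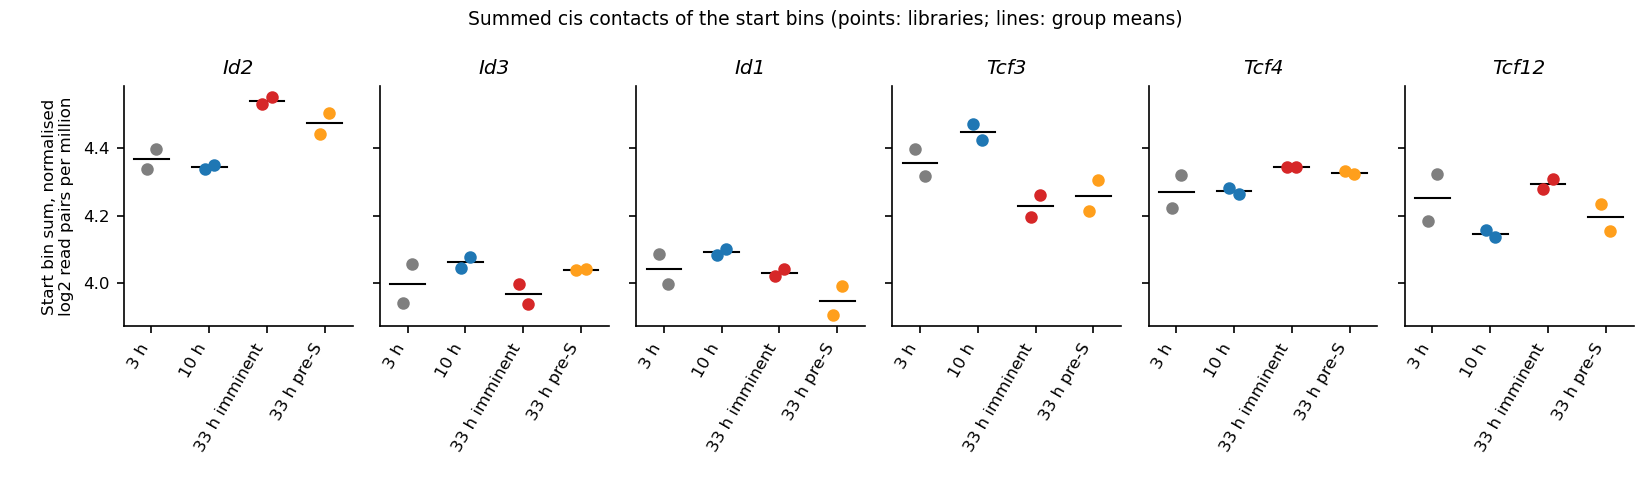
Normalised log2 CPM of the read pairs between each start bin and partners up to 2 Mb away, 1 point per library and a line at the mean of each group of 2. The 33 h points of Id2 sit at 4.44 to 4.55, above 4.34 to 4.40 at 3 h and 10 h, and those of Tcf3 at 4.20 to 4.30, below 4.32 to 4.47.

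Near and distant partners gave different calls. Offsets were fitted anew for each distance class, so the class changes are not parts of the change in the whole sum. For Id2, partners up to 250 kb held 33.6% of its read pairs within 2 Mb at 10 h, 33.8% at 33 h imminent and 32.0% at pre-S (group means). With partners up to 250 kb alone, 0 of 6 genes were called in any comparison, beside 33.3% of all start bins for the imminent group and 25.4% for the pre-S group against 10 h, 9.48% between the 33 h groups and 0.136% between 3 h and 10 h. The Id2 values were -0.0019 for the imminent and -0.08 for the pre-S group. With partners from 300 kb to 2 Mb, 5 of 6 genes were called from 10 h to 33 h imminent, beside 51.1% of all start bins. Tcf3 fell by 0.47, with adjusted p = 5.12e-07 by edgeR, and Id3 fell by 0.20, whereas Id2, Tcf4 and Tcf12 rose by 0.18, 0.17 and 0.20. For the pre-S group, Tcf3 fell by 0.44 and Id1 by 0.26 over the distant partners (adjusted p = 2.62e-05 and 0.0107 by edgeR), beside 39.1% of all start bins called, and Id2 differed by 0.07 (0.244), so that its pre-S call was held in neither distance class alone. Between 3 h and 10 h, and between the 33 h groups, 0 of 6 sums were called beside 0.0679% and 4.07% of all start bins, with 2 and 1 at an unadjusted p under 0.05 in edgeR and 0 and 0 called by DESeq2. The differences between the 33 h groups ran from -0.07 for Id3 to 0.10 for Tcf12. Over partners from 300 kb, Tcf4 was higher by 0.18 and Tcf12 by 0.22 in the imminent than in the pre-S group, with adjusted p = 0.0379 and 0.0241 by edgeR, beside 6.91% of all start bins called. These distance classes were set after the data had been seen.

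Among single contacts of the start bins, Tcf3 lost the most, with called contacts from 750 kb toward lower to 1150 kb toward higher coordinates. From 10 h to 33 h imminent, 15 of the 39 tested contacts of Tcf3 (38.5%) were lower and 0 higher, whereas 2.29% of 1229600 bin pairs up to 2 Mb were called (edgeR, adjusted over 1459324 bin pairs). This count rested on single libraries: it was 6 without replicate 2 of the imminent group, 3 without its replicate 1, 5 and 2 without replicate 1 and 2 of 10 h, and 2 with DESeq2. The median change of the 39 contacts was -0.67, and -0.59 to -0.68 with each library left out. The Tcf3 contact at 450 kb toward higher coordinates (chr10:80850102-80899977), in the bin with the starts of Lsm7, Sppl2b and Tmprss9, was counted 41 and 58 times in the libraries of 3 h, 77 and 99 times in those of 10 h, 71 and 67 times in the imminent and 51 and 43 times in the pre-S libraries. Its observed over expected values were 3.04 and 2.21 at 3 h, 4.01 and 3.92 at 10 h, 1.91 and 1.53 at 33 h imminent and 2.50 and 2.48 at pre-S, so 10 h was the highest group. The normalised change from 10 h to 33 h imminent was -1.13 ± 0.18, with adjusted p = 3.92e-06 by edgeR. It was called with each library left out in turn, with adjusted p = 0.00634 without replicate 2 of the imminent group. Sppl2b is an intramembrane protease of the signal peptide peptidase family, and Lsm7 belongs to a ring that binds RNA in splicing and decay.

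The contact of Tcf3 at 600 kb toward lower coordinates, with the bin of Misp, a spindle protein gene, was counted 34 and 37 times at 10 h and 23 and 31 times at 33 h imminent, a change of -1.27 ± 0.27 with adjusted p = 0.00181 by edgeR, and 0.0711 without replicate 1 of 10 h. The contact at 400 kb toward higher coordinates, with the starts of Amh, Jsrp1, Oaz1 and Lingo3, changed by -0.89 ± 0.19, with adjusted p = 0.00212 by edgeR, and 0.113 without replicate 2 of 10 h. Both were called without replicate 2 of the imminent group. The other 12 called contacts changed by -0.67 to -1.69, and each was called in 2 to 6 of the 8 fits that left out a library (adjusted p up to 0.584 by edgeR). Between 10 h and 33 h pre-S, 0.679% of bin pairs were called genome-wide, and for Tcf3 1 of 39 contacts, with 24 lower and 0 higher at an unadjusted p under 0.05. This was the contact at 400 kb toward lower coordinates with the bin of Arhgap45, Polr2e and Gpx4, the last of these the lipid peroxidase that guards against ferroptosis, counted 45 and 67 times at 10 h, 59 and 65 at 33 h imminent and 21 and 22 at 33 h pre-S. Its change was -1.14 ± 0.26, with adjusted p = 0.00779 by edgeR, and it was lost without replicate 2 of 10 h or either pre-S library.

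**Figure D3:**
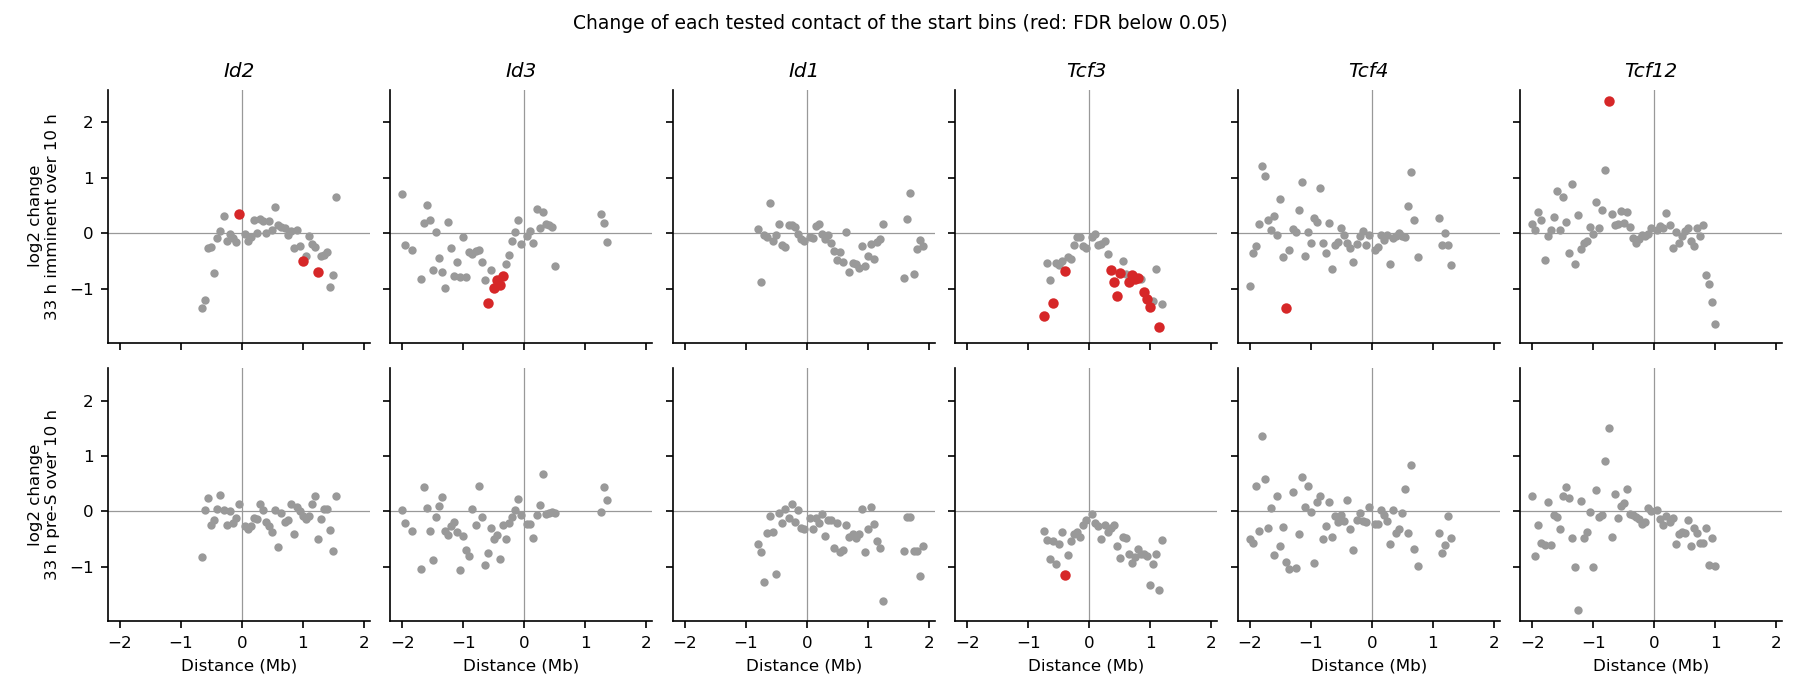
Log2 change of each tested contact of the start bins (upper row 33 h imminent over 10 h, lower row 33 h pre-S over 10 h) against the distance of the partner bin in Mb, with contacts below a false discovery rate of 0.05 in red. The 15 red points of Tcf3 in the upper row all lie below 0, on both sides of the gene, and 1 point is red in the lower row.

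The contacts of Id3 fell on one side. From 10 h to 33 h imminent, 5 of its 50 tested contacts were lower and 0 higher, beside 2.29% of bin pairs up to 2 Mb called. All 5 lay between 350 and 600 kb toward lower coordinates. The bin of Il22ra1, an interleukin receptor gene, at 400 kb (chr4:135699478-135750100) met Id3 45 and 55 times at 10 h and 35 and 59 times at 33 h imminent, a change of -0.94 ± 0.22 with adjusted p = 0.00607 by edgeR. The bins over Stpg1 and Grhl3 at 600 kb and of Ifnlr1, the interferon lambda receptor gene, at 450 kb changed by -1.26 and -0.85, with adjusted p = 0.0120 and 0.0352 by edgeR. Without replicate 2 of the imminent group the contacts at 400 and 450 kb were still called (adjusted p = 0.00866 and 0.0496 by edgeR) and that at 600 kb was not (0.142). Leaving out either 10 h library or replicate 1 of the imminent group took away the calls at 400 and 450 kb, with adjusted p up to 0.158 and 0.346. Both imminent libraries were deeper than those of 10 h, so equal read pairs mean a lower normalised value there.

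Single contacts of Id2 moved in both directions. The contacts at 1250 kb over Rnf144a and at 1000 kb were lower at 33 h imminent than at 10 h, with changes of -0.70 ± 0.17 and -0.50 ± 0.15 (adjusted p = 0.00758 and 0.0465 by edgeR), and that with the neighbouring bin over Kidins220 was higher by 0.35 ± 0.10 (0.0467). Of the 44 tested contacts of Id2, these 3 were called, beside 2.29% of bin pairs up to 2 Mb. At an unadjusted p under 0.05 in edgeR, 7 were lower and 3 higher. The median change of the 44 was -0.07 under the offsets of the single contacts, opposite in sign to the rise of 0.20 in the sum, whose offsets were fitted on sums. Without replicate 2 of the imminent group, the contact at 1250 kb had adjusted p = 0.0826 by edgeR and that with the Kidins220 bin 0.161, and the contact at 1000 kb 0.0358. Leaving out either 10 h library took away all 3 calls (up to 0.413). Against the pre-S group, 1 contact of Id2, with a gene-free bin at 600 kb toward higher coordinates (chr12:25650002-25700468), was higher in the imminent group, by 0.79 ± 0.18 with adjusted p = 0.0128 by edgeR, beside 0.407% of bin pairs called genome-wide. It was counted 63 and 98 times at 10 h, 149 and 150 at 33 h imminent and 49 and 36 at 33 h pre-S, and the call was lost without replicate 1 of the imminent group or either pre-S library (adjusted p up to 0.254).

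Tcf4 and Tcf12 had 1 called contact each of 60 tested from 10 h to 33 h imminent, and Id1 had 0 of 48, beside 2.29% of bin pairs up to 2 Mb. However, 3 contacts of Id1 were called lower with TMM factors and 3 with DESeq2. Those settings called 37684 and 8232 of all 1459324 bin pairs lower. The start bin of Tcf4 and the bin of Ldlrad4, 1400 kb toward lower coordinates, changed by -1.36 ± 0.41 with adjusted p = 0.0484 by edgeR. The start bin of Tcf12 and a gene-free bin at 750 kb toward lower coordinates (chr9:71350158-71399951) shared 2 and 4 read pairs in the libraries of 3 h, 1 and 3 in those of 10 h, 19 and 21 in the imminent and 4 and 7 in the pre-S libraries. This change of 2.38 ± 0.61 had adjusted p = 0.0147 by edgeR, and up to 0.180 without either library of 10 h or of the imminent group. The Tcf4 call was lost without any 1 library of 10 h or 33 h (up to 0.265). Between 3 h and 10 h, 0 contacts of the 6 genes were called by edgeR or DESeq2, beside 0.000732% of bin pairs genome-wide.

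All bin pairs inside the 4 Mb windows, not only those of the start bins, were also counted. In the Tcf3 window 17.2% of 1306 tested bin pairs were called from 10 h to 33 h imminent, 213 lower and 11 higher, and in the Id3 window 6.17% of 1961, 117 lower and 4 higher. The windows of Tcf12, Tcf4, Id1 and Id2 had 3.83%, 2.57%, 2.15% and 1.57% called, beside 2.29% of all bin pairs up to 2 Mb. The window counts also hold pairs over 2 Mb apart, which that share leaves out, so the sets are not alike. Pairs inside one window share bins and are not independent. In the stretch from 700 kb below to 1200 kb above the Tcf3 start bin, which was picked after the map of changes had been seen, the median observed over expected value of the bin pairs at least 150 kb apart was 2.22 and 1.88 at 3 h, 2.15 and 2.13 at 10 h, 1.35 and 1.42 at 33 h imminent and 1.43 and 1.48 at 33 h pre-S. The 33 h libraries lay below the earlier ones inside this stretch. With both bins outside it the medians were 0.965 and 0.951 at 3 h and 0.948 and 0.982 at 10 h. They were higher at 33 h imminent, 1.08 and 1.18, and 1.03 and 0.940 at 33 h pre-S. With 1 bin inside they ran from 0 to 0.212 over all libraries.

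**Figure D4:**
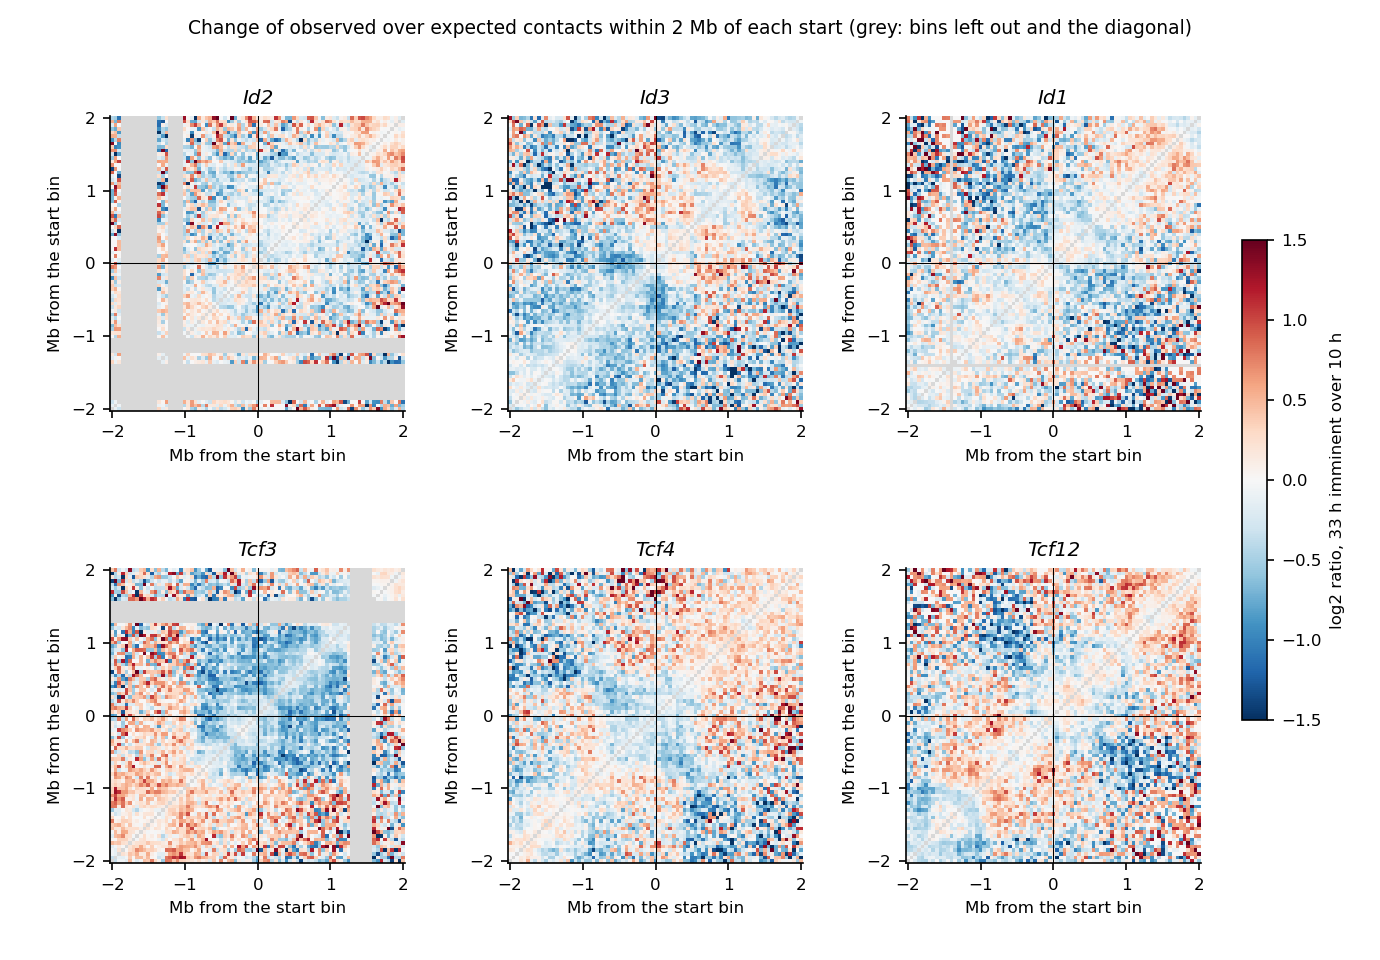
Change of observed over expected contacts between all bins within 2 Mb of each start, as the log2 ratio of the 33 h imminent mean over the 10 h mean (0.25 added to both), with distances in Mb on both axes, blue for lower and red for higher at 33 h imminent. A blue block lies around Tcf3, in whose 4 Mb window 213 of 1306 tested bin pairs were called lower, and a smaller one lies toward lower coordinates of Id3.

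The insulation score, the log2 number of contacts passing over a bin within 500 kb on each side over the chromosome median, fell at most of the genes. A low score marks a bin that few contacts cross, as at the edge of a domain. From 10 h to 33 h imminent, 5 of 6 start bins had lower scores (limma over 46320 bins, Benjamini-Hochberg adjusted), beside 57.5% of all bins called and 34.0% called lower, or 56.8% called lower among 12877 start bins. For 33 h pre-S it was 6 of 6, beside 59.7% called and 35.6% called lower, or 59.3% lower among start bins. Bins with high scores fell genome-wide: among the fifth of bins with the highest mean score, which holds Id3, Tcf3, Tcf4 and Tcf12, 82.7% and 78.3% were called lower, and the SD of the scores over all bins was 0.749 to 0.82 in the libraries of 3 h and 10 h and 0.564 to 0.655 in those of 33 h. The part of this narrower range in the members' values was not tested beyond a quantile normalization of the scores.

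Tcf3 had the largest change of the 6. Its score was 1.55 and 1.21 at 3 h, 1.51 and 1.48 at 10 h, 0.65 and 0.81 at 33 h imminent and 0.80 and 0.97 at 33 h pre-S. The groups of 33 h did not overlap the earlier ones, and the changes from 10 h were -0.77 ± 0.10 and -0.61 ± 0.10, with adjusted p = 4.05e-05 and 0.000345 by limma. Tcf4 had the highest scores, 1.96 to 2.00 at 3 h and 10 h and 1.40 to 1.59 at 33 h, and changed by -0.51 ± 0.07 and -0.39 ± 0.07. Tcf12 changed by -0.34 ± 0.06 and -0.23 ± 0.06, and the pre-S call of Tcf12 was lost without replicate 2 of 10 h or of the pre-S group (adjusted p up to 0.0786). After quantile normalization between libraries, Tcf3 kept its calls at -0.43 and -0.32, whereas Tcf4 (-0.06 and -0.02) and Tcf12 (0.05 and 0.10) lost theirs, and the Tcf12 difference turned its sign.

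Among the Id genes, Id3 went from 1.41 and 1.41 at 10 h to 0.81 and 0.97 at 33 h imminent and 0.92 and 0.97 at pre-S, and Id1 from 0.88 and 0.88 to 0.33 and 0.41 and to 0.35 and 0.42. The changes were -0.52 ± 0.07 and -0.47 ± 0.07 for Id3 and -0.51 ± 0.06 and -0.50 ± 0.06 for Id1, with adjusted p between 4.12e-05 and 0.000317 by limma, and both genes kept these calls under every alternative tried. Id2, whose bin lies where the score climbs from low to high values, went from 0.25 and 0.18 at 10 h to 0.03 and 0.14 at 33 h imminent, which did not pass (adjusted p = 0.0857), and to -0.14 and -0.03 at pre-S, a change of -0.30 ± 0.06 with adjusted p = 0.00171. Without replicate 2 of the imminent group the 5 calls stayed below 0.05, and Id2 joined them at -0.19 (adjusted p = 0.0451). Between 3 h and 10 h 0 of 6 scores were called, beside 0.307% of all bins, and between the 33 h groups 0 of 6, beside 10.3%, with 1 at an unadjusted p under 0.05 in each (limma).

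**Figure D5:**
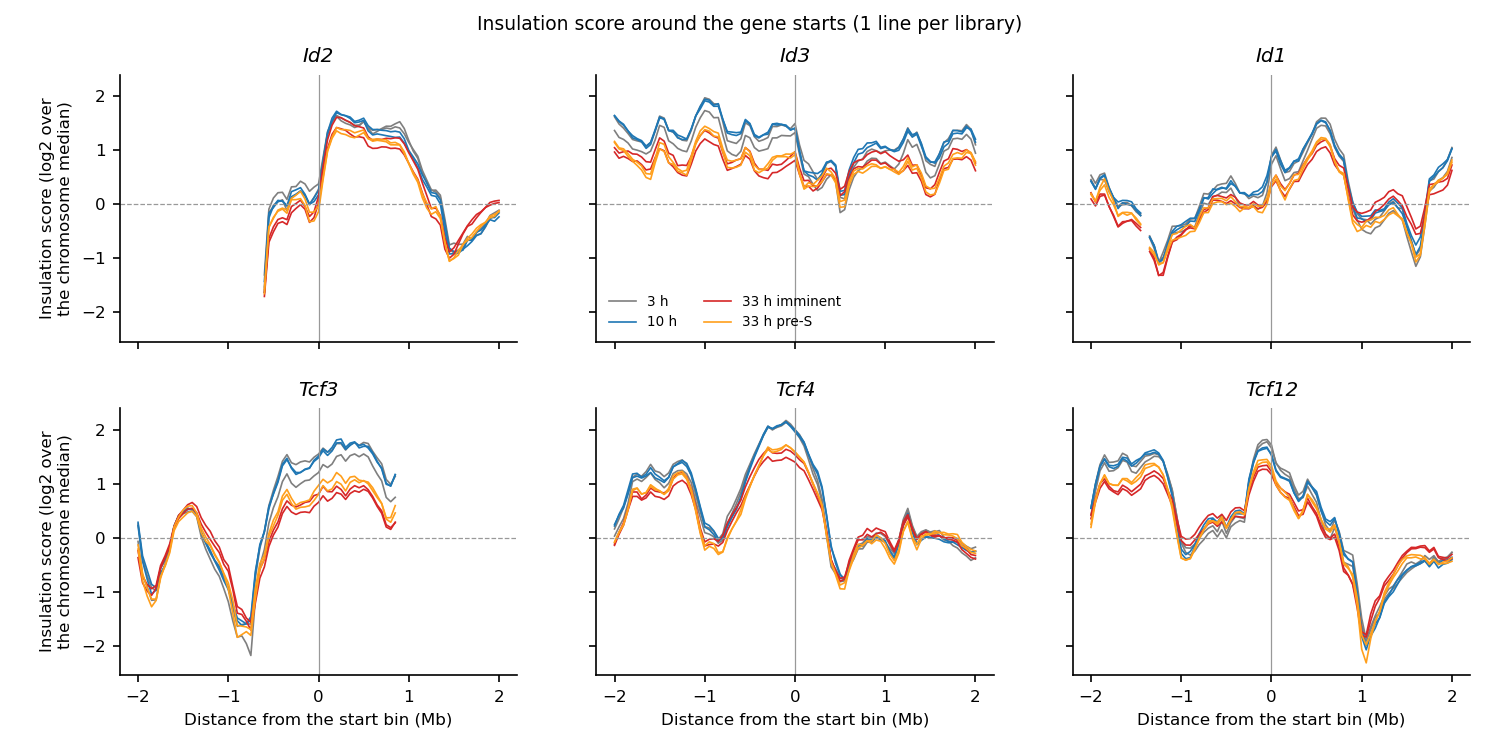
Insulation score (log2 over the chromosome median) against the distance from the start bin in Mb, 1 line per library, with gaps where bins were left out. At the Tcf3 start bin the 33 h lines lie at 0.65 to 0.97, below 1.21 to 1.55 at 3 h and 10 h, and at Id2 the score climbs steeply from the start bin toward higher coordinates.

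The boundary ratio, log2 of the contacts within 1 Mb toward lower over those toward higher coordinates for the 100 kb region of the start, showed 1 call. Id3 stood at 1.27 and 1.245 at 10 h and at 0.80 and 0.91 at 33 h imminent, a change of -0.40 ± 0.05 with adjusted p = 4.30e-06 (edgeR, tested against a 1.1-fold change), and -0.45 without replicate 2. The pre-S values of Id3, 1.07 and 1.17, lay between these groups. This 1 of 6 stands beside 18.2% of 23569 regions, and 0 of 6 were called in the other comparisons, beside 0.390% for 10 h against 3 h, 4.82% for pre-S against 10 h and 5.56% between the 33 h groups, with 0, 0 and 3 at an unadjusted p under 0.05. The ratio of Id2 was between -1.42 and -1.70 in all libraries, the largest in size of the 6 genes.

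All 6 genes lay in the A compartment in all 8 libraries, with first component scores (scaled to an SD of 1 per chromosome) from 0.829 for Tcf3 to 1.45 for Id1. From 10 h to 33 h imminent the scores of Id2 and Tcf3 rose by 0.12 ± 0.03 and 0.13 ± 0.04, with adjusted p = 0.0133 and 0.0361 by limma, beside 23.0% of 23789 regions called. At 33 h pre-S Tcf3 had risen by 0.16 ± 0.04 (adjusted p = 0.01003), beside 26.0%, of which 11.6% were higher, or 50.3% after quantile normalization. Id2 scored 0.96 and 0.93 at 10 h, 1.08 and 1.05 at 33 h imminent and 0.99 and 0.95 at pre-S, so its imminent libraries alone stood above. These calls were lost when the component was taken from log2 values. The imminent calls of both genes were lost without either 10 h library or replicate 1 of the imminent group, that of Tcf3 also without replicate 2 (0.11, adjusted p = 0.212), and the pre-S call of Tcf3 without replicate 1 of 10 h or replicate 2 of the pre-S group. In 10 h against 3 h and between the 33 h groups 0 of 6 were called, beside 3.80% and 21.2%, with 0 and 1 at an unadjusted p under 0.05 (limma).

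The windows also met each other across chromosomes. Per library, the 4 Mb windows of Id3 and Id1 shared 2.01 to 2.48 times, and those of Id3 and Tcf3 2.00 to 2.50 times, the read pairs that the interchromosomal coverage of their bins gives, over at least 567 read pairs in each library. The windows of Id2 and Id3 shared 0.330 to 0.446 times and those of Id2 and Tcf3 0.404 to 0.543 times that number. The value of Id3 with Tcf12 was 1.63 to 1.94. These values are a description of whole windows and carry no test.

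A list of 33 genes around the E protein axis, which lie in 31 start bins because Igll1 and Vpreb1 share a bin, as do Rag1 and Rag2, was read in the same fit and is counted here by bin. Between 10 h and 33 h imminent, 2 of the 31 rose and 10 fell, beside 22.3% of all start bins called higher and 21.9% lower. From 10 h to 33 h pre-S 4 rose and 8 fell, beside 19.2% and 18.1%. The median changes of the 31 were -0.09 and -0.05, beside 0.0014 and -0.0025 over all start bins. Without replicate 2 of the imminent group 2 rose and 8 fell, and with TMM factors 3 rose and 18 fell for the imminent group and 3 rose and 14 fell for the pre-S group, beside 27.1% and 22.7% of all start bins lower. By role, 4 of the 11 bins of B lineage targets of E proteins fell and 0 rose at 33 h imminent (2 fell without replicate 2 of that group and 8 with TMM factors), and 3 fell and 2 rose at pre-S (8 and 0 with TMM factors). Of the 5 regulators of Id genes 3 fell in each comparison (2 at 33 h imminent without that library, and 2 at pre-S with TMM factors), and among the 8 partners and inhibitors 1 rose and 2 fell and among the 7 cofactors 1 rose and 1 fell at 33 h imminent. With TMM factors, 2 of the partners and inhibitors rose and 5 fell at 33 h imminent, and 1 of the cofactors rose and 2 fell. Egr3, the factor that induces Id3 after receptor signalling, changed by -0.35 ± 0.04 for the imminent and -0.26 ± 0.04 for the pre-S group (adjusted p = 4.05e-06 and 0.000196 by edgeR). Cd79a, the signalling chain of the B cell receptor, changed by -0.26 ± 0.05 and -0.23 ± 0.05, and Cbfa2t3, the corepressor ETO2 that binds E proteins, by -0.21 ± 0.04 and -0.27 ± 0.04. Ccnd3, cyclin D3, fell by 0.25 for the imminent group, and Msc, a repressor that pairs with E proteins in B cells, rose by 0.22 for the imminent and 0.17 for the pre-S group.

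Between the 33 h groups, Ccnd3 differed by -0.15 ± 0.04 (imminent minus pre-S) and Id4, the fourth Id gene, by 0.23 ± 0.06 (adjusted p = 0.0416 and 0.0452 by edgeR), and neither was called without replicate 2 of the imminent group. Between 3 h and 10 h, 0 of the 31 were called. The insulation score fell at 23 of the 31 start bins for the imminent and 27 for the pre-S group, beside the 56.8% and 59.3% of all start bins. After quantile normalization it fell at 17 and 15 of the 31, beside 40.9% and 41.1% of all start bins.

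The genes were not alike in their course over the libraries. Over the 8 normalised sums, Id2 ran with Tcf4 (Pearson r = 0.847) and against Tcf3 (-0.833), and Tcf3 ran with Id1 (0.758). These values share the 8 libraries and their group means, rest on the loess offsets, and are a description. With TMM factors the imminent changes of Id2, Tcf4 and Tcf3 were 0.02, -0.08 and -0.38, and the pre-S changes -0.02, -0.08 and -0.33. Under that scaling Id2 therefore hardly changed. The likeness values that follow were picked as the highest over all tested start bins and carry no test. The start bins most like Id2 over the 13254 tested were those of Vldlr (r = 0.995) and Prune2 (0.993), for Tcf3 those of Cyp8b1 (0.991) and of Tprgl with Megf6 (0.988), and for Id3 those of Adamts9 (0.933) and Pim1 (0.930). For Id1 they were Igsf21 (0.986) and Dsn1 (0.982), for Tcf4 Jhy (0.989) and Olfr891 (0.984), and for Tcf12 Mmp10 (0.958) and C1d (0.952).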

How the data were processed

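In situ HiC libraries (MboI) had been aligned by the authors to mm10 with diffHic, and duplicate reads had been marked, and read pairs that were dangling ends or from over-long fragments removed. The deposited values are raw counts of read pairs per pair of 50 kb bins, not normalised. The 53357 bins were rebuilt from MboI fragment midpoints of GRCm38, and 756 of 48088 autosomal bins were left out for over 10% undetermined bases or a coverage over 4-fold from the median. No column belonged to other samples. The 6 members, the lists and the tests were chosen with earlier results of these data known.

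R 4.3.3 was used. Start bin sums (minimum 200 counts, loess offsets, no trend), single bin pairs (loess offsets, abundance over 4-fold the interchromosomal background) and boundary ratios were tested with edgeR 4.0.16, and insulation and compartment scores with limma 3.58.1, each in a one-way layout of the 4 groups over all 8 libraries, adjusted over all features at a false discovery rate of 0.05. In each fit the 4 groups shared 1 estimate of the spread, although replicates were not equally alike. Over 13254 start bins the chi-square per bin between replicates was 3.28 at 3 h, 1.21 at 10 h, 4.54 at 33 h imminent and 1.55 at pre-S. A spread for each group was not fitted. Compartments came from 100 kb regions. DESeq2 1.42.0, TMM factors, coverage offsets, other distances, each library left out and a replicate block were the alternatives. The 3 partner distance and neighbour settings were added after the data had been seen. Genes named in the text were the 6 members, their 3 strongest partners from 150 kb with 10 read pairs on average, at most 3 called contacts per comparison and at most 4 called genes of the list. The values of some genes and partner bins that this rule names are not reported here. On simulated data for 33 h imminent against 10 h, 92 of 100 start bin sums changed 1.25-fold were recovered among 13254, with 15 false calls, and 21 of 100 bin pairs changed 2-fold and 94 of 100 changed 4-fold among 57780, with 7 false calls. The changes of the members' sums in the main fit were smaller than 1.25-fold, and far fewer sums were changed than were called in the data. Recovery at the members' sizes and the effect of the scaling were therefore not tested. Whether marked duplicates were left out of the counts is not given in the sources used here. The depth was 88703088 to 218945191 read pairs, and its effect on each measure was not tested. Replicate numbers did not pair the libraries. No table of proteins was used, and the promoter entries are those of RefSeq (GRCm38.p6).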

Additional observations from a re-analysis of the deposited data

Results flagged for a closer look

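Among all tested contacts of the 6 genes, 1 was called between the groups of 33 h, beside 0.407% of all bin pairs up to 2 Mb. The start bin of Id2 and a bin without a protein-coding gene 600 kb toward higher coordinates (chr12:25650002-25700468) were joined more often in the imminent than in the pre-S group, by 0.79 on the log2 scale with adjusted p = 0.0128 by edgeR. The difference itself was tested in the fit of all libraries. Strain, sort and stage differ between the groups together and cannot be told apart. The call was lost with bin coverage in the offsets (0.58, adjusted p = 0.0827 by edgeR) and with DESeq2. With bin coverage in the offsets, 7 other contacts were called instead, 4 of Id2 and 3 of Tcf3, all lower in the imminent group. Over all 1459324 bin pairs that setting called 10064 higher and 21706 lower, against 2128 and 3123 in the main fit. These 7 calls are therefore not read as a result about the 2 genes.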

How the results depend on the processing

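Of the called start bin sums, the Id2 change turned its sign with partners up to 250 kb (-0.0019 for the imminent and -0.082 for the pre-S group) and, for pre-S, with TMM factors (-0.022) and DESeq2 (-0.029), and the Tcf12 insulation change did so after quantile normalization (0.048 and 0.098). Of the sums not called, Tcf4 turned from 0.07 to -0.085 with DESeq2 and -0.096 with partners up to 250 kb for the imminent group, and Tcf12 for pre-S from 0.05 to -0.065 with TMM factors. Offsets were fitted anew for each distance class, and the cause of these turns was not tested. The numbers called over all features also changed with the setting, so the counts of members that follow are not read as results about these genes. For imminent against 10 h, 3 of 6 sums were called, beside 44.2% of all start bins. With TMM factors or DESeq2 it was 3 (Id3, Id1 and Tcf3 lower in place of Id2 and Tcf12 higher). With bin coverage in the offsets it was 5, and with both neighbouring bins 5. With partners up to 250 kb it was 0, beside 33.3%, and from 300 kb 5, beside 51.1%. For pre-S, 3 became 0 with partners up to 250 kb and 1 to 3 without single libraries. With TMM factors, with DESeq2 and with partners from 300 kb, Id1 and Tcf3 kept their pre-S calls and Id2 lost its call. With both neighbouring bins Id2, Id1 and Tcf3 stayed called, and Tcf12 was called as well (0.10, adjusted p = 0.044 by edgeR). Between the 33 h groups, 0 became 2 with the interaction filter and 2 from 300 kb, and for 10 h against 3 h 0 became 0 to 1 without single libraries. Insulation calls for 10 h against 3 h went from 0 to 1 with 250 kb sides and 0 to 1 without single libraries. Those for the imminent group went from 5 to 3 after quantile normalization, those for pre-S from 6 to 4 after it, 5 with 250 kb sides and 5 to 6 without single libraries, and those between the 33 h groups from 0 to 1 with 250 kb sides, 1 after quantile normalization and 0 to 2 without single libraries. Boundary calls rose from 1 to 2 with 500 kb flanks and 2 without the fold threshold for the imminent group, and between the 33 h groups from 0 to 3 without the threshold and 0 to 1 without single libraries. Compartment calls for the imminent group went from 2 to 1 with 250 kb bins, 0 with log2 values and 0 to 2 without single libraries. For pre-S they went from 1 to 0 with log2 values, 2 after quantile normalization and 0 to 2 without single libraries, and in the other comparisons from 0 to up to 2 (10 h against 3 h) and up to 1 without single libraries. Called contacts for the imminent group went from 25 to 10 with the 2-fold filter, 7 with DESeq2 and 2 to 28 without single libraries. For pre-S they went from 1 to 3 with TMM factors, 7 with coverage (all higher, against 1 lower), 0 with DESeq2 and 0 to 1 without single libraries, and between the 33 h groups from 1 to 7 with coverage (all lower, against 1 higher), 0 with DESeq2 and 0 to 2 without single libraries.

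Same-numbered replicates correlated at -0.443 to 0.138 in their deviations, so that the numbers were not taken to pair libraries. With the replicate block the called contacts for the imminent group went from 25 to 18. Over all features the block moved the sums called between 3 h and 10 h from 9 to 2 and between the 33 h groups from 540 to 182, and the insulation scores from 142 to 8 and from 4770 to 2341. For the imminent group, 5861 sums were called in all against 3739 with coverage in the offsets and 3161 to 6617 without single libraries. Between the 33 h groups the 540 became 12 with TMM factors, 61 with DESeq2 and 2449 with coverage, and 4284 boundary ratios became 8821 without the fold threshold. Over all bin pairs, the calls for pre-S went from 4943 higher and 3716 lower to 9145 and 3438 with coverage. For the imminent group they went from 10074 and 19252 to 44 and 8232 with DESeq2. Start bins called with lower insulation went from 56.8% (imminent) and 59.3% (pre-S) to 40.9% and 41.1% after quantile normalization. Of the single sums, scores and ratios under the alternatives, 1183 stayed on their side of the threshold. The 237 of these that were called kept their direction, and of the 946 below the threshold in both settings 99 differed in sign. Beside the 4 sum and 2 insulation values that turned their sign and lost their call, calls were lost for 21 sum, 5 insulation, 13 compartment and 59 contact values, whereas 99 contact values stayed called, and calls were gained for 20 sum, 11 insulation, 7 compartment and 6 boundary values. Many single contacts rest on under 100 read pairs per library, and each group holds 2 libraries.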
